A study of Mus musculus with 5 samples.

Results

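The glutathione transferases studied here were 10 mouse genes of the alpha class (Gsta1, Gsta2, Gsta3 and Gsta4), the mu class (Gstm1, Gstm2, Gstm3 and Gstm5), the pi class (Gstp1) and the theta class (Gstt1). They were measured in B16F1 cells, a mouse melanoma line. The set was drawn up because the signals of Gsta2, Gstm1 and Gstm3 were lower with TGF-β1 than with vehicle, so the values of that contrast are given as a description and carry no test. Members were found as the probes whose RefSeq accession belongs to one of these genes. There were 12 such probes for 9 of the 10 genes, among 56595 probes in all and 22907 genes named by a probe, and Gsta1 had no probe. Of the 12 probes, 8 were well above background on all 5 arrays and 2 (Gsta4 and Gstt1) on none.

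Glutathione transferases join the tripeptide glutathione to electrophilic compounds, which makes them more soluble and ready for export from the cell. The cytosolic enzymes work as dimers and are grouped into classes by sequence, and several mouse classes lie in gene clusters that arose by duplication. Many of their genes are induced by NRF2, a transcription factor that KEAP1 holds down in unstressed cells and that binds antioxidant response elements. In melanocytic cells glutathione also takes up quinones formed during melanin synthesis.

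The 5 arrays formed 4 groups. Tmsb4x KO cells with TGF-β1 had 1 array for each of 2 clones (KO clone 1 and KO clone 2), and wild-type (WT) B16F1 cells had 1 array each with TGF-β1 and CCG1423, with TGF-β1 alone and with vehicle. Tmsb4x encodes thymosin β4, a peptide that binds actin monomers. TGF-β1 is a growth factor that signals through SMADs, while the inhibitor CCG1423 acts against MRTF, an actin-controlled coactivator of the transcription factor SRF. Exposure on the arrays with TGF-β1 lasted 2 days, with TGF-β1 at 10 ng/ml and, where added, CCG1423 at 10 µM. For the vehicle array no duration is recorded. The KO clones derive from B16F1 as well. The design text speaks of a knockdown and the labels of a knockout, the edited part of the gene is not named, and each KO array is 1 clone. For the array with both agents the treatment field names CCG1423 alone, while its title and description name both. Nothing in the labels tells whether the cultures were independent. A p-value takes its spread from the 2 KO clones alone, weighing that of all probes more than the probe's own. With 1 array a clone, clone differences and technical spread cannot be told apart in that spread. All arrays lay on 1 slide scanned once.

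Values are normalized log2 signals, meaning the log2 of the background-subtracted signal minus the array's 75th percentile, so a difference of 1 is a 2-fold change and a level of 0 lies at that percentile. Levels are compared between arrays for 1 probe, not between probes. The exception is the summed marker level given below, the log2 of the linear levels added over the markers, in which bright probes weigh most. On each array 50.4% to 55.7% of spots stood well above background, and saturation affected 0 spots. The detection limit (the dimmest signal flagged as above background) was 26.0 in KO clone 2, against 13.3 to 15.5 on the other 4 arrays. Tmsb4x itself stood at 5.44 in KO clone 1 and 4.28 in KO clone 2, at 6.79 in WT cells with TGF-β1 and CCG1423, 7.12 with TGF-β1 and 5.05 with vehicle, so KO clone 1 lay above the vehicle array. All 7 melanocyte markers (among them Mitf, Pmel and Sox10) were well above background on all 5 arrays, and 0 of 4 epithelial and 0 of 4 hepatocyte markers were on any array. Of the 5 fibroblast markers Lum alone was detected, with vehicle, and of the 5 immune markers 2 were detected on each array, Cd68 among them. In such bulk RNA, fewer cells that express a gene and less RNA per cell cannot be told apart.

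Gsta1 and Gsta2 lie in the same gene cluster on chromosome 9, and their promoters are shown because Gsta2 differed 2-fold or more in 3 of the comparisons below, while Gsta1 had no probe. Each sequence is the 250 bases before the RefSeq transcript start (build GRCm38.p6), read 5′ to 3′ on the gene's strand, and capitals mark the longest run that both share.
Gsta1 (chr9:78230419-78230668, plus strand): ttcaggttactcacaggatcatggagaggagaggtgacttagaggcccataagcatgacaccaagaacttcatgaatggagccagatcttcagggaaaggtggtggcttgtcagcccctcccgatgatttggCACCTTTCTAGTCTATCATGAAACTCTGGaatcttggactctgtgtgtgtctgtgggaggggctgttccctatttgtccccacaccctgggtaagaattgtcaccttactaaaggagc
Gsta2 (chr9:78347146-78347395, minus strand): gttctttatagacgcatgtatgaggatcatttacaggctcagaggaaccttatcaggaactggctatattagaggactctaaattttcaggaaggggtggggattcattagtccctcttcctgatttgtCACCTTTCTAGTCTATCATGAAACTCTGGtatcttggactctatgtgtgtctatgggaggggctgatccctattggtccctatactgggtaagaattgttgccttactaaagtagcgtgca
In a global alignment the 2 stretches matched at 76% of the 250 bases, and the shared run was 29 bases long, starting 118 bases before the Gsta1 start and 121 bases before the Gsta2 start. Other pairs of different members matched at 52% to 64.8%. Neither stretch held the antioxidant response element core TGACNNNGC, the AP-1 site TGANTCA or the E-box CACGTG on either strand. Sequence farther upstream was not searched.

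Gsta2, an alpha-class transferase that also reduces organic peroxides, gave a clear signal everywhere. It read 2.60 in KO clone 1 and 2.36 in KO clone 2 with TGF-β1, 0.05 in WT cells with TGF-β1 and CCG1423, 0.81 with TGF-β1 alone and 2.91 with vehicle. Both KO clones thus stood near the vehicle array, and the array with both agents was the lowest. In WT cells Gsta2 was 4.28-fold lower with TGF-β1 than with vehicle, which is the value it was chosen for. Adding CCG1423 left it 1.69-fold lower again than TGF-β1 alone, and 7.26-fold lower than vehicle. With TGF-β1, KO clone 1 was 3.46-fold and KO clone 2 2.93-fold higher than WT cells. The clones averaged 2.48 ± 0.17 (SD, n = 2), and the log2 difference from WT cells with TGF-β1 was 1.67 (SE 0.29, 95% interval 1.01 to 2.33), with a limma adjusted p of 0.0592 over all probes, so it did not pass the threshold of 0.05. It passed with normexp background correction (adjusted p = 0.0373) and with dim probes kept (4.45e-06), in a range up to 0.205 over all alternatives. That WT array is also the one on which Gsta2 had been picked for being low. Against WT cells with TGF-β1 and CCG1423, an array that took no part in the choice of members, the clones were higher by 2.43 on the log2 scale (SE 0.29, interval 1.77 to 3.09, limma adjusted p = 0.00629). Quantile normalization ended that call (adjusted p = 0.0510). These 2 groups differ in genotype and in CCG1423 at once, and which of these goes with the difference cannot be told apart.

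Gsta3, the alpha enzyme that detoxifies the aflatoxin epoxide in mouse liver, had 2 probes, both dim and for different RefSeq transcripts. The first probe read -2.48 in KO clone 1, -3.31 in KO clone 2, -1.68 in WT cells with TGF-β1 and CCG1423, -2.56 with TGF-β1 and -4.39 with vehicle, and the last was not well above background. With TGF-β1 it was at least 3.29-fold higher than with vehicle. The second probe read -2.93 in KO clone 1, -4.14 in KO clone 2, where it was not well above background, -2.54 with TGF-β1 and CCG1423, -4.16 with TGF-β1 and -3.72 with vehicle. On that probe TGF-β1 differed from vehicle by -0.44 on the log2 scale, so the 2 probes disagreed in direction and no change of Gsta3 with TGF-β1 is stated. Both probes were highest with TGF-β1 and CCG1423, by 1.83-fold on the first and 3.06-fold on the second over TGF-β1 alone. With normexp background correction the TGF-β1 difference of the first probe was 0.51, and the CCG1423 difference of the second 0.68, on the log2 scale. Gsta4, which conjugates the lipid peroxidation product 4-hydroxynonenal, ranged between -5.68 and -4.69 and cleared background on 0 of the 5 arrays.

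**Figure D1:**
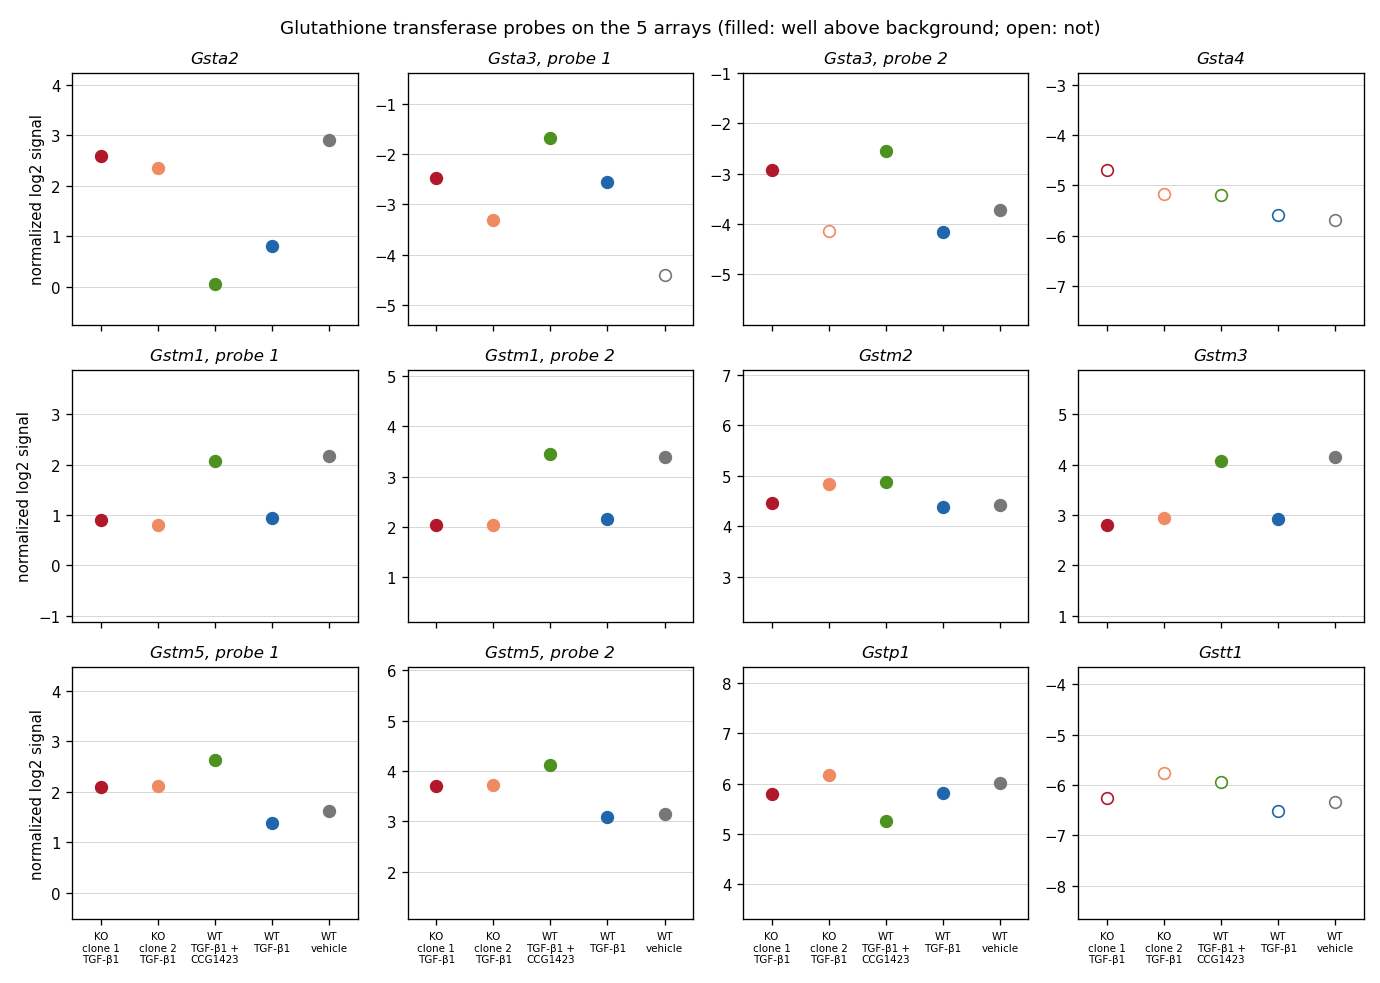
Normalized log2 signal (vertical axis, each panel spanning the same number of log2 units) of the 12 glutathione transferase probes on the 5 arrays: KO clone 1, KO clone 2, WT with TGF-β1 and CCG1423, WT with TGF-β1, WT with vehicle. Filled points were well above background and open points were not; Gsta2 was lowest with TGF-β1 and CCG1423 at 0.05, where both Gstm1 probes and Gstm3 stood close to vehicle.

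The mu-class genes lie side by side on chromosome 3 and conjugate many small electrophiles. The promoters of Gstm1 and Gstm3, which were lower with TGF-β1, are set beside that of Gstm5, which was not 2-fold lower and was the only mu-class member with a match to the motifs searched. Capitals mark these matches, TGACTCA for AP-1 and TGACCACGC for the antioxidant response element core, whose first bases lie 176 and 42 bases before the Gstm5 start. For Gstm1, RefSeq gives 2 starts, and the outer one is shown.
Gstm1 (chr3:108017974-108018223, minus strand): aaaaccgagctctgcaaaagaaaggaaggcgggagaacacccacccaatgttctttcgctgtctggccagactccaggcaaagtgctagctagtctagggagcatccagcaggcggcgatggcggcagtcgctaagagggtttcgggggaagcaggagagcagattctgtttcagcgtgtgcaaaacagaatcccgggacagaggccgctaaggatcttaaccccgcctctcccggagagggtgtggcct
Gstm3 (chr3:107969175-107969424, minus strand): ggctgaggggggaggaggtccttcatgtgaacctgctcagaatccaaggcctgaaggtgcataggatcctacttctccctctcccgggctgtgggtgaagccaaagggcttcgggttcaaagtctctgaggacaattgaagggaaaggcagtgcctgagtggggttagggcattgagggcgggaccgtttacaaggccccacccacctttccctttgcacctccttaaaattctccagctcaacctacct
Gstm5 (chr3:107895604-107895853, plus strand): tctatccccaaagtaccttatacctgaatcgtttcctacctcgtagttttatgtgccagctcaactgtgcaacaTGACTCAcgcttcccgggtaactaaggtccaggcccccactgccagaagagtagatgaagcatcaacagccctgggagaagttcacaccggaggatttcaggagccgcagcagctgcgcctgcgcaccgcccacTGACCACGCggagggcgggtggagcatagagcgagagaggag
Of the 250-base stretches before 32851 RefSeq starts, 10.2% held the element core, 6.75% the AP-1 site and 6.02% the E-box. Elsewhere among the members, Gsta3 held the element core as TGACATTGC at 121 bases and Gstp1 the AP-1 site as TGAGTCA at 74 bases before the start, while none of the motifs lay in the stretches of Gstm2 and Gstt1. A match is a run of letters and not a measured binding site, and the lack of a match holds for these stretches alone.

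Gstm1, a mu-class enzyme abundant in liver, had 2 probes that ran together. The first read 0.91 in KO clone 1, 0.81 in KO clone 2, 2.07 in WT cells with TGF-β1 and CCG1423, 0.94 with TGF-β1 and 2.17 with vehicle. The second read 2.03 in both KO clones, 3.45 with TGF-β1 and CCG1423, 2.15 with TGF-β1 and 3.39 with vehicle. On both, the 3 arrays with TGF-β1 and no CCG1423 read lower than the other 2 arrays. Part of this split, WT cells with TGF-β1 below vehicle, is what Gstm1 was picked for. The share of all probes split in this way was not counted. TGF-β1 was 2.35-fold and 2.36-fold lower than vehicle on the 2 probes, and CCG1423 with TGF-β1 was 2.19-fold and 2.46-fold higher than TGF-β1 alone. The KO clones differed from WT cells with TGF-β1 by -0.08 (limma interval -0.73 to 0.56) and -0.12 (-0.76 to 0.52), which leaves room for changes of up to about those bounds. Against WT cells with TGF-β1 and CCG1423 the clones were lower by 1.21 (SE 0.28, limma adjusted p = 0.0478) and 1.42 (SE 0.28, adjusted p = 0.0279). Under other processing the adjusted p of the first probe ran from 0.00162 to 0.123 and that of the second from 5.86e-05 to 0.0829, and both calls were lost with quantile normalization and without limma's mean-variance trend. The call of the first was also lost with the deposited table, with normexp, and with only probes well above background on all arrays.

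Gstm3, another mu-class enzyme, showed the same arrangement. It read 2.81 in KO clone 1, 2.95 in KO clone 2, 4.06 in WT cells with TGF-β1 and CCG1423, 2.93 with TGF-β1 and 4.14 with vehicle. The 3 arrays with TGF-β1 and no CCG1423 were again the low ones, and Gstm3 too had been picked for being low with TGF-β1. TGF-β1 was 2.33-fold lower than vehicle, and CCG1423 with TGF-β1 was 2.20-fold higher than TGF-β1 alone. The clones differed from WT cells with TGF-β1 by -0.05 (interval -0.70 to 0.61) and from WT cells with both agents by -1.18 (SE 0.29, limma adjusted p = 0.0541), which did not pass but did with the deposited table (0.0347), with dim probes kept (0.00215) and with 1 probe a gene (0.0394).

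Gstm5, a mu-class member best known from testis and brain, had 2 probes that differed little between TGF-β1 and vehicle. The first read 2.10 in KO clone 1, 2.12 in KO clone 2, 2.62 in WT cells with TGF-β1 and CCG1423, 1.39 with TGF-β1 and 1.62 with vehicle. The second read 3.71 in KO clone 1, 3.72 in KO clone 2, 4.11 with TGF-β1 and CCG1423, 3.08 with TGF-β1 and 3.15 with vehicle. The 2 WT arrays without CCG1423 were low and the array with it was the highest. CCG1423 with TGF-β1 exceeded TGF-β1 alone by 2.35-fold and 2.03-fold, and exceeded vehicle by 2.01-fold and 1.94-fold. The clones exceeded WT cells with TGF-β1 by 0.72 (SE 0.28, limma adjusted p = 0.752) and 0.63 (SE 0.28, adjusted p = 0.899), which did not pass. Gstm2 read 4.46 in KO clone 1, 4.85 in KO clone 2, 4.89 with TGF-β1 and CCG1423, 4.39 with TGF-β1 and 4.43 with vehicle, and no difference of it reached 2-fold.

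Gstp1, the pi-class enzyme common in dividing and tumour cells, read 5.79 in KO clone 1, 6.16 in KO clone 2, 5.25 in WT cells with TGF-β1 and CCG1423, 5.81 with TGF-β1 and 6.01 with vehicle. The array with CCG1423 was the lowest, by -0.56 against TGF-β1 alone, and the clones lay above it by 0.73 (limma adjusted p = 0.256), which did not pass. Its near-identical neighbour Gstp2 could share signal with this probe, which was not tested. Gstt1, a theta-class enzyme that acts on small halogenated compounds, ranged between -6.51 and -5.76 and likewise cleared background on 0 arrays.

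**Figure D2:**
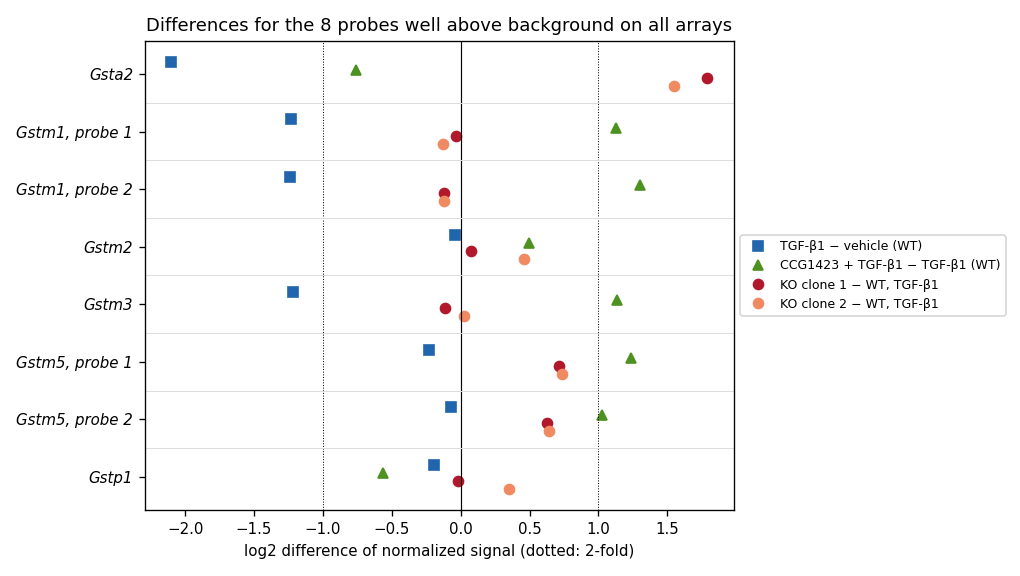
Log2 differences of normalized signal (horizontal axis, dotted lines at 2-fold) for the 8 member probes well above background on all arrays: TGF-β1 minus vehicle, CCG1423 with TGF-β1 minus TGF-β1 (both WT), and each KO clone minus WT with TGF-β1. For both Gstm1 probes and Gstm3 the CCG1423 triangles lie beyond 2-fold higher and the clones near 0, and for Gsta2 the triangle lies at -0.76 and the clones at 1.79 and 1.55.

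The same probes were then read against all probes measured in each comparison, of which 10 member probes entered. Between TGF-β1 and vehicle, 4 member probes (Gsta2, both of Gstm1, Gstm3) were 2-fold or more lower and 1 of Gsta3 was higher, where 3.53% of 31767 probes were lower and 4.56% higher. This contrast chose the members, and nothing is read from its counts. Between CCG1423 with TGF-β1 and TGF-β1 alone, 6 of the 10 were 2-fold or more higher (both probes of Gstm1 and Gstm5, Gstm3 and 1 of Gsta3) and 0 lower, where 6.94% of 31509 probes were higher and 6.5% lower. Over the alternatives run the member count higher was 3 to 6, the 3 being of 7 genes with 1 probe a gene. The deposited table turned the split of all probes to 1724 higher and 2732 lower, in place of 2188 and 2047. Both comparisons use the same WT array with TGF-β1, on which Gstm1 and Gstm3 had been picked for being low. Gstm5 had not been picked in that way. Of 7 melanocyte markers Mlana (-1.65) and Mitf (-1.23) were 2-fold or more lower in the same comparison, the summed marker level (log2) being 10.77 with both agents and 11.18 with TGF-β1, and Cd68 was 2.82-fold higher. Their part in the members' differences was not tested. With 1 array a condition, these differences have no replicate check.

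Between the KO clones and WT cells with TGF-β1, Gsta2 alone was 2-fold or more higher in both clones and 0 member probes were lower, where 0.589% of 30561 probes were higher and 1.72% lower in both (180 and 527 probes, or 90 and 648 with the deposited table). Limma passed 0 member probes and 146 probes in all (0.478%), 12 higher and 134 lower. At an unadjusted p under 0.05 it listed 2 member probes (Gsta2 and the first of Gstm5), where 5.66% of all probes were so listed. The 2 clones themselves differed by 2-fold or more at 8% of 30635 probes and at 0 of the 10 member probes, where the second Gsta3 probe, not well above background in KO clone 2, counts by its bound of at least 1.67-fold (measured log2 difference 1.22). Between the clones and WT cells with TGF-β1 and CCG1423, limma passed 3 member probes, Gsta2 higher and both of Gstm1 lower, where 4.96% of 28976 probes passed. At 2-fold or more in both clones, 1 member probe was higher and 3 lower in that comparison, against 4.09% and 4.5% of all probes. Among the melanocyte markers, 3 of 7 (Tyr, Mlana and Mitf) passed as higher in the clones there (limma adjusted p of 0.0431, 0.0173 and 0.0352), and their summed level was 11.38 in KO clone 1 and 11.39 in KO clone 2, against 10.77 in WT cells with both agents. Tyr is also among the genes most like Gsta2 described below. The part of this in the Gsta2 difference was not tested.

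Position in the genome was set beside the values, using the gene order of the RefSeq table. The Gstm cluster on chromosome 3 runs Gstm5, Gstm7, Gstm6, Gstm3, Gstm2, Gstm1 and Gstm4, with 3 pseudogenes among them that had no probe. The 9 probes of the run that were well above background on all arrays all read higher with TGF-β1 and CCG1423 than with TGF-β1 alone, by 0.50 (Gstm2) to 1.76 (second probe of Gstm6), where 50.8% of the 25282 probes as bright did so, and 3 of the 9 (Gstm1 and Gstm3) had been picked for being low on the shared array. Gstm7 was not well above background on either of those arrays, and no difference is given for it there. Against vehicle, TGF-β1 was 2-fold or more lower on the probes of Gstm1 and Gstm3 and at least 1.86-fold lower on that of Gstm7, while Gstm2, which lies between Gstm3 and Gstm1, differed by -0.04. Gstm4 differed by -0.67 with TGF-β1 and by 0.82 when CCG1423 was added, and the first probe of Gstm6 by -0.36 and 0.73. In the Gsta cluster on chromosome 9, Gm10639, which the RefSeq table places between Gsta1 and Gsta2, read 3.74 in KO clone 1, 3.50 in KO clone 2, 0.99 with TGF-β1 and CCG1423, 1.91 with TGF-β1 and 3.99 with vehicle. These values rank the arrays as Gsta2 does. Probe sequences were not used here, so shared signal between such relatives was not tested.

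**Figure D3:**
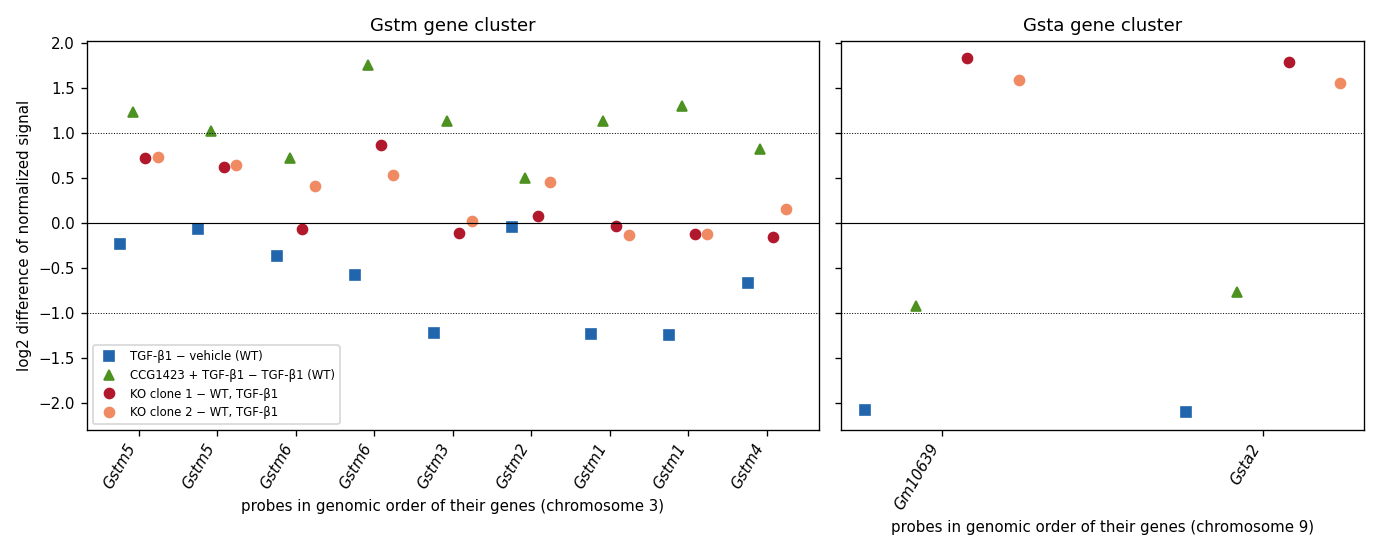
Log2 differences of normalized signal (vertical axis, dotted lines at 2-fold) for probes of the Gstm cluster on chromosome 3 and of 2 genes of the Gsta cluster on chromosome 9, in the order of their genes and not to scale. Only probes well above background on all 5 arrays are drawn, which leaves out Gstm7; the CCG1423 triangles of the 9 Gstm probes drawn are above 0, and those of Gm10639 and Gsta2 below 0.

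For each member bright on all arrays, the 3 genes outside the set with the most similar pattern were found among 12052 genes that are not members, as the smallest root mean square difference of centred log2 levels over the 5 arrays. For Gsta2 these were Gm10639 (0.0719), Hs3st1, a heparan sulfate sulfotransferase (0.337), and Tyr, the tyrosinase that starts melanin synthesis (0.377), where the median over all genes was 1.11. Tyr read 1.11 in KO clone 1, -0.18 in KO clone 2, -1.65 with TGF-β1 and CCG1423, -0.80 with TGF-β1 and 0.91 with vehicle. Among the members themselves, Gstm1 and Gstm3 lay closest (0.0968), nearer than any gene outside the set lay to either, and both had been picked for the same TGF-β1 difference. Outside the set, the nearest to Gstm1 were Dnm1 (0.152), Ramp2 (0.152) and Osgin1 (0.172), with a median of 0.717 over all genes, and Dnm1 and Ramp2 were also among the 3 nearest to Gstm3, behind Adgre5 (0.157). For Gstm5 they were Lrrc56, Lysmd4 and Dnajc18, for Gstm2 Sgpl1, Tmem248 and Tmem120b, and for Gstp1 Mrps6, Ssx2ip and Map2k2. With 5 arrays such likeness describes these arrays alone.

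The 7 lists of related genes, 1 probe a gene, placed the members among their pathway. With TGF-β1 against vehicle, 0 of 14 other glutathione transferases measured were 2-fold or more higher and 1 was lower, with a median log2 difference of -0.25 against -0.05 over all 14145 genes, where 4.95% were higher and 3.27% lower. That gene was Hpgds, a sigma-class prostaglandin D synthase (-1.31). Of 15 genes of glutathione supply, 1 was higher, Ggt1, the surface enzyme that breaks glutathione down (2.26), and 2 were lower, Slc7a11, the cystine importer (-1.86), and Cth, which makes cysteine (-1.12). Of 24 redox genes 1 was higher, Gpx2, a glutathione peroxidase (2.67), and 0 lower. Among 19 NRF2 targets outside glutathione metabolism Ephx1, the microsomal epoxide hydrolase, was lower (-1.36), and of 5 genes of the AHR battery Ahr was lower (-1.94). Of 9 NRF2 regulators, and of 7 export pumps for conjugates, 0 reached 2-fold. Nfe2l2, which encodes NRF2, read 2.91 in KO clone 1, 2.94 in KO clone 2, 2.82 with TGF-β1 and CCG1423, 2.94 with TGF-β1 and 3.69 with vehicle. Among the 9 regulators 5 were above 0 with TGF-β1 against vehicle and 4 below, with a median of 0.05.

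When CCG1423 was added to TGF-β1, 4 of 14 supply genes were 2-fold or more higher and 0 lower, with a median of 0.37 against -0.05 over all 14057 genes, where 6.01% were higher and 6.98% lower. Slc7a11 read -1.93 in KO clone 1, -2.40 in KO clone 2, 0.14 with TGF-β1 and CCG1423, -2.57 with TGF-β1 and -0.71 with vehicle. Cth read -1.82 in KO clone 1, -1.66 in KO clone 2, 0.25 with TGF-β1 and CCG1423, -1.58 with TGF-β1 and -0.46 with vehicle. In both genes the array with both agents was the highest, 6.54-fold above TGF-β1 alone for Slc7a11 and 3.55-fold for Cth. Chac1 was another of the 4 (1.57). The list also holds Ggt1 (0.53), which breaks glutathione down, so its counts are not a measure of supply alone. Of 13 other glutathione transferases 1 was higher (Gsto2, 1.19) and 0 lower, with a median of 0.18. Gpx2 (-2.05) and Sod2, the mitochondrial superoxide dismutase (-1.27), were lower among 24 redox genes. Nfe2l1, a relative of NRF2 (1.37), and Sqstm1, an adaptor that binds KEAP1 (1.02), were higher among 9 regulators, and Maff, a small MAF protein (-1.39), was lower. Blvrb (1.27) was higher and Pgd (-1.20) lower among 19 NRF2 targets, and Abcc5 (1.05) was higher among 7 export pumps.

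In the KO clones against WT cells with TGF-β1, limma passed 1 gene of the 7 lists, where 0.478% of all probes passed. The lists had 5 to 24 genes tested, and the gene that passed was Gpx2, of the redox list. It read 1.36 in KO clone 1, 0.96 in KO clone 2, -3.23 in WT cells with TGF-β1 and CCG1423, -1.18 with TGF-β1 and -3.85 with vehicle (log2 difference 2.34, limma adjusted p = 0.0393). Gpx2 was thus high in both clones, as Gsta2 was, but unlike Gsta2 it was lowest with vehicle. Ephx1 was 2-fold or more higher in both clones (1.02 and 1.70) and did not pass (adjusted p = 0.306). Against WT cells with TGF-β1 and CCG1423, limma passed 4.96% of 28976 probes. Among 14 supply genes it passed Slc7a11 (-2.30, limma adjusted p = 0.0127) and Cth (-1.98, adjusted p = 0.0138) as lower. It also passed Gpx2 (4.39, adjusted p = 0.00228) and Sod2 (1.21, adjusted p = 0.0473) as higher among 23 redox genes, Maff as higher (2.35, adjusted p = 0.00684) and Nfe2l1 as lower (-1.28, adjusted p = 0.0451) among 8 regulators, and Osgin1 as lower (-1.46, adjusted p = 0.0252) among 19 NRF2 targets. Of 13 other glutathione transferases 0 passed in either comparison of the clones.

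**Figure D4:**
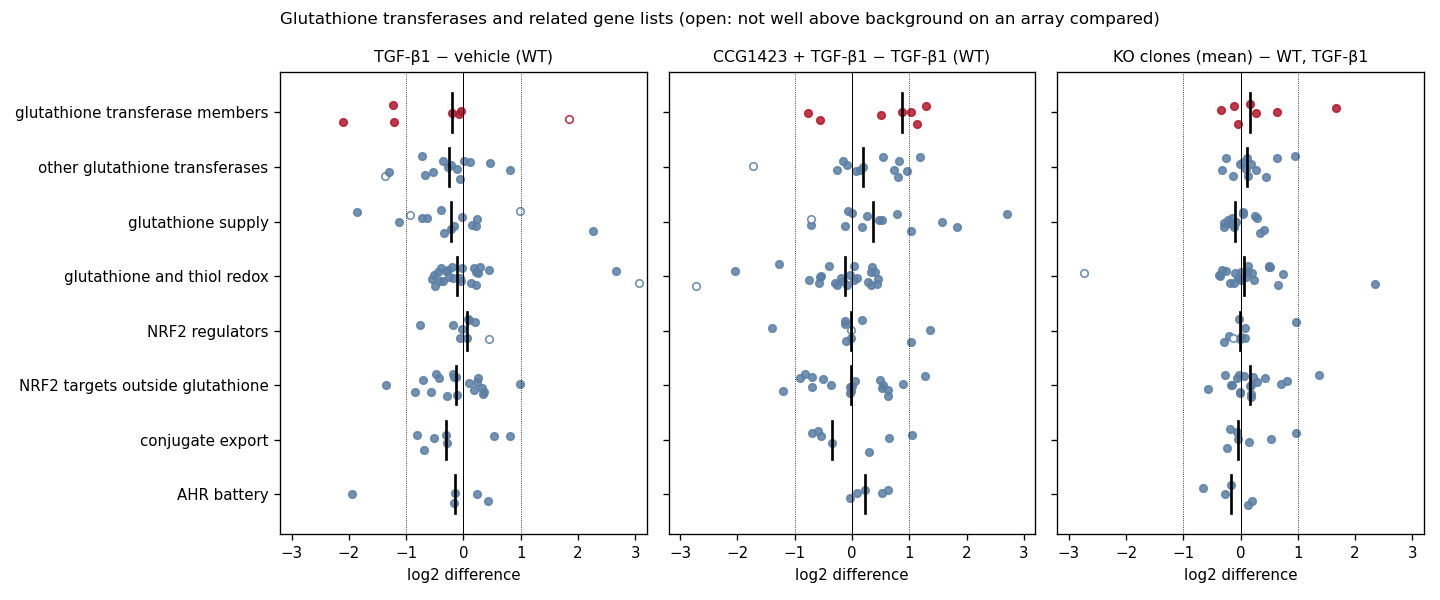
Log2 differences (horizontal axis, dotted lines at 2-fold) of the glutathione transferase members (red) and of genes in 7 related lists (blue), 1 point a gene, with the list median as a bar, for TGF-β1 minus vehicle, CCG1423 with TGF-β1 minus TGF-β1 (both WT), and the mean of the KO clones minus WT with TGF-β1. Open points were not well above background on an array compared and counted as 2-fold only by their bound; 3 of the members were picked on the left panel's contrast, which shares the WT array with TGF-β1 with the other 2 panels, so the members' medians are not read against those of the lists. Slc7a11 lies at 2.71 in the middle panel.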

How the data were processed

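Total RNA of 5 cultures was labelled with Cy3 and hybridised to Agilent arrays of 1 colour, and scanner intensity came from Agilent Feature Extraction (version 12.0.3.1), per the submitters' processing notes. The intensity used (the processed signal) was background-subtracted within each array and not normalized between arrays, per the file headers; the 0 or 1 flags for signal well above background, saturation and outliers come from the same deposited files. The deposited value table holds this intensity times a constant for each array, with a log2 of -0.17 in KO clone 1, -0.08 in KO clone 2, 0.34 with TGF-β1 and CCG1423, 0.12 with TGF-β1 and -0.01 with vehicle. Its column medians were 23.2, 28.8, 27.5, 29.2 and 26.9 in that order. It is linear, not centred and runs in the direction of the intensity, but how its constants were set is unknown.

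Control spots (3671 an array) and 107 to 141 outlier spots an array were left out of normalization, log2 signals of replicate spots were averaged, and each array's 75th percentile (56595 probes) was taken off. Replicate spots of a probe had a median coefficient of variation of 8.55% to 9.33%. Of the probes, 32988 were named through the unversioned RefSeq accession in a RefSeq table of assembly GRCm38.p6, whose coordinates are not used for probes because the headers name an older build. Promoter sequences are RefSeq's, of GRCm38.p6, and 9 of the 10 members had one (Gsta4 is named only). A probe entered a comparison when all arrays of 1 group or the other had it well above background; a fold against a side below background is a bound ("at least"), taken against the higher of that signal and the array's lowest signal well above background. For lists and likeness the probe with the highest mean stood for its gene. Named genes were the members and, from each list, up to 2 highest and 2 lowest at 2-fold or more. Nfe2l2 was named besides as the gene of NRF2, though it did not reach 2-fold with TGF-β1. Chac1 was named as 1 more supply gene at 2-fold or more when CCG1423 was added. The members, lists, motifs and tests were chosen with earlier results of these data known.

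Only comparisons with both KO clones were tested. The fit used limma (version 3.58.1, R 4.3.3: lmFit, then eBayes with trend; all 5 arrays in 4 groups, Benjamini-Hochberg adjustment over all probes that entered). The spread comes from the 2 clones, 1 residual degree of freedom, and the single WT arrays are assumed to vary like them. The eBayes step draws each probe's spread toward a trend over all probes, which weighs 7.42 degrees of freedom. An SE thus reflects that trend more than the probe's own clones. The first Gstm5 probe, for 1, had a clone SD of 0.0107 and an SE of 0.28. Tested on simulated data drawn from the fitted spread, after a first noise model was replaced, limma recovered most of the larger changes, but in most draws more of its calls were false than the threshold allows, so its adjusted p-values are too small by an unknown amount and calls near the threshold are not firm. The number of arrays limits the precision of every value. The other steps used Python 3.11.15, numpy 2.4.6, pandas 2.3.3 and matplotlib 3.10.9. Alternatives were other scalings, the deposited table, normexp (offset 50, on the median in place of the mean signal, which was not used here), other filters, 1 probe a gene, no trend and each clone left out.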

Additional observations from a re-analysis of the deposited data

How the results depend on the processing

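Among the members' values 0 changed sign as a called value under any alternative run: 64 of 65 stayed within the spread between clones, or on their side of the threshold, for TGF-β1 against vehicle, 64 of 65 for CCG1423 added to TGF-β1, 91 of 95 for the KO clones against WT cells with TGF-β1 and 82 of 95 for the clones against WT cells with both agents. Several of these alternatives could not move a log2 difference much. Filters and 1 probe a gene leave it as it is, and the array median and the deposited table shift all probes of a comparison alike. Between single WT arrays, quantile normalization and normexp alone could move 1 probe apart from the others. Uncalled differences close to 0 did cross it with the deposited table, such as Gstm2 with TGF-β1 (0.06, against -0.04). The exceptions were the dim Gsta3 probes and the limma calls of Gsta2, Gstm1 and Gstm3 given above. The cause of these changes was not tested. The count of member probes at 2-fold or more above vehicle in TGF-β1 cells was 0 in place of 1 with normexp and with only probes well above background on all arrays. The count higher with CCG1423 (6 of 10 probes) was 3 of 7 genes with 1 probe a gene, a setting that drops the other probe of a gene. It was 4 with normexp and with the deposited table, and 5 with the array median. It was also 5 among the 8 probes well above background on all arrays. For the clones against WT cells with TGF-β1, limma passed 1 member probe as higher in place of 0 with normexp and without a filter, and against WT cells with both agents it passed 0 higher and 0 lower with quantile normalization, 0 lower without the trend, and 1 lower with normexp and with only probes well above background on all arrays. With 1 clone left out, the 2-fold counts of member probes were 1 to 2 higher against WT cells with TGF-β1, and 3 to 5 lower against WT cells with both agents. 

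Counts beyond the members also depend on how many probes or genes entered a setting. With 1 probe a gene, 4.95% of 14145 genes were higher and 3.27% lower with TGF-β1 than with vehicle. In the main setting these shares were 4.56% and 3.53% of 31767 probes. Over all that entered, the 2-fold counts ranged from 678 to 1665 higher (1450 in the main setting) and 268 to 1142 lower (1120) for TGF-β1 against vehicle. With CCG1423 added they ranged from 783 to 2188 higher (2188) and 869 to 2732 lower (2047). For the clones they ranged from 45 to 180 higher (180) and 104 to 648 lower (527) against WT cells with TGF-β1, and from 582 to 1211 higher (1186) and 542 to 1353 lower (1305) against WT cells with both agents; with 1 clone left out they were 808 to 819, 836 to 1048, 2056 to 2152 and 1979 to 2242, since 1 clone then has to reach 2-fold in place of both. Limma's counts for the clones against WT cells with TGF-β1 (12 higher, 134 lower) were 0 and 0 with quantile normalization, 38 and 488 with the deposited table, 19 and 257 with normexp, 223 and 479 without a filter, 0 and 9 with only probes well above background on all arrays, 1 and 31 with 1 probe a gene, and 376 lower without the trend. Against WT cells with both agents (726 higher, 711 lower) they were 52 and 262 with quantile normalization, 1100 lower with the deposited table, 471 higher with normexp, 1714 and 1425 without a filter, 324 lower with only probes well above background on all arrays, 444 and 311 with 1 probe a gene, and 372 higher without the trend. The deposited table moved the median of all probes by 0.10 (TGF-β1 against vehicle), -0.13 (CCG1423 added) and -0.20 (clones against WT cells with TGF-β1). No paired analysis was possible because each WT condition has 1 array and the labels give no pairing. Signal over background limits Gsta3, Gsta4 and Gstt1, and clone 2, with the highest detection limit, gives the weakest bounds.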
